A study of Mus musculus with 9 samples.

Results

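The 34 genes described here cover glycolysis by isoform (16 enzymes), the fate of pyruvate and lactate (5 enzymes), the carriage of glucose and lactate across the cell membrane (5 transporters), the oxygen-regulated factor Hif1a with the hydroxylases Egln1 and Egln3, and 5 further genes of the hypoxia response. They were picked by symbol with earlier results of these data known, so their counts beside those of all genes are no independent finding. All 34 were listed among the 16367 genes of the table of sorted mouse retinal cells and among the 17035 genes of the table of primary cultures. Every one had reads in all 9 libraries, and all 34 passed the filter on low values that kept 14403 genes. The sorted libraries came from wild-type mice. In the sham group (3 libraries) the cornea was cut with no oil given, and in the ocular hypertension group (OHT, 3 libraries) 1.2 µL of silicone oil was placed in the anterior chamber of both eyes, giving a chronic and mild rise of eye pressure. The labels state neither the strain nor the age of these mice, nor how long the pressure was raised. Each sorted library pooled 4 neural retinas, from which live cells were captured with magnetic beads through an antibody to GLAST, a glutamate transporter of Müller glia that astrocytes carry too. The primary cultures (3 libraries) were wild-type cells labelled as Müller glia, grown in serum from C57BL/6J pups aged 8 to 10 days and passaged, with no treatment. The labels do not say whether sorted libraries of a group came from separate cohorts, so p-values measure the spread between these libraries.

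Glycolysis splits glucose into pyruvate in the cytosol. Pyruvate is then either reduced to lactate by lactate dehydrogenase or burned in mitochondria through pyruvate dehydrogenase, which the pyruvate dehydrogenase kinases switch off. In the retina, photoreceptors and Müller glia are known for making lactate even when oxygen is at hand, and monocarboxylate transporters pass lactate between cells. When oxygen falls, the prolyl hydroxylases encoded by Egln genes slow down, the HIF factors escape degradation and bind the short core motif ACGTG or GCGTG in hypoxia response elements, among them those of many glycolytic genes.

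The promoters of the lactate dehydrogenase pair and of the lactate transporter pair are shown because these isoforms trade places between the sorted cells and the cultures, as described further on. By read count, Pdk3 and Pdk1 as well as Aldoa and Aldoc also trade places, and their promoters are not shown. Each is the stretch of 250 bases before the RefSeq start (GRCm38.p6), printed 5′ to 3′ on the strand of the gene, with every ACGTG or GCGTG on either strand in capitals. CACGTG holds the motif on both strands and counts as 2 matches. The windows are chr7:46845554-46845803 on the plus strand, chr6:142507958-142508207 on the minus strand, chr3:104638414-104638663 on the plus strand and chr11:120948817-120949066 on the plus strand.
Ldha: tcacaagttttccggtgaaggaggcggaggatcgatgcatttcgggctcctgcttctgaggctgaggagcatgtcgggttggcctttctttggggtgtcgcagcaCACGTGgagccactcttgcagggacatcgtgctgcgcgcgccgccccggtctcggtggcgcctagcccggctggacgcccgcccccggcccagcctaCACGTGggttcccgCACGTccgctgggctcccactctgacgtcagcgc
Ldhb: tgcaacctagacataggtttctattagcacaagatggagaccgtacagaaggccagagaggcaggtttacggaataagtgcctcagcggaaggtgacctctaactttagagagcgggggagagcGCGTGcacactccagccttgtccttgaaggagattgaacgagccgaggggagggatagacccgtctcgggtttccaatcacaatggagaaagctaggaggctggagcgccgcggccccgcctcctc
Slc16a1: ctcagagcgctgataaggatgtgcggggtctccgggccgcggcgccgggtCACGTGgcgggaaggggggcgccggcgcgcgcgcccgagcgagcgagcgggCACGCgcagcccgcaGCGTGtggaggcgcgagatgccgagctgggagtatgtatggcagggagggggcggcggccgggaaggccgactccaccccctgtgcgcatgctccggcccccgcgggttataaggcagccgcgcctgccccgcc
Slc16a3: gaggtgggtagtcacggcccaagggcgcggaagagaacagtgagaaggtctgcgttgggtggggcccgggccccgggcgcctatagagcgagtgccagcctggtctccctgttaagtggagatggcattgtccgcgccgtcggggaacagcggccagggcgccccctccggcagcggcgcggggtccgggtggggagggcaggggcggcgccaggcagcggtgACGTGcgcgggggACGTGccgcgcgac
The Ldha window had 5 matches, all of them ACGTG (a second RefSeq start of Ldha, not shown, had 1 GCGTG), and the Ldhb window had 1, a GCGTG. Slc16a1 had 4 matches and Slc16a3 had 2. RefSeq promoters were found for 32 of the 34 genes (44 windows, since some genes have several starts). A match was present in 35 of these 44 windows (79.5%), against 53.5% of 14331 windows of the genes tested in the sorted cells and 38.6% of all 32851 windows of this length. Some windows of the same gene overlap and share sites. By gene, 28 of 32 had a match, against 6638 of 11154 of the genes tested. The list was drawn up to hold HIF targets, so its higher share is no independent finding. Windows of the 34 genes averaged 61.5% GC, those of the genes tested 59.4% and all windows 53.2%. A match describes the letters and is no measure of binding.

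Depth was 37822145 to 53592052 reads in the sorted libraries and 66309309 to 76745389 in the cultures, and levels in ppm are reads per 1000000 reads of the library. The authors' scaling did not follow depth: values were reads divided by 0.724 in OHT replicate 1 and by 0.968 to 1.25 in the other sorted libraries. The label Müller glia was checked against marker lists, and 13 of 14 Müller glia markers had reads in all 6 sorted libraries. Summed, these markers took 0.387% to 0.932% of sham and 0.217% to 0.458% of OHT reads, below the microglia and macrophage markers (12 genes), at 3.34% to 5.22% and 4.49% to 6.11%. Rod markers (12 genes) were at 0.276% to 2.59% in sham and 0.0968% to 0.344% in OHT, endothelial markers (8 genes) at 0.0220% to 0.0470% and 0.0108% to 0.0204%, and mitochondrially encoded genes at 14.1% to 19.6% and 2.19% to 6.13%. Pericyte and fibroblast markers (7 genes) were at 0.0114% to 0.0241% in sham and 0.000802% to 0.00322% in OHT, amacrine markers (6 genes) at 0.00206% to 0.00282% and 0.000160% to 0.00149%, and astrocyte markers (6 genes) at 0.00361% to 0.128% and 0.00588% to 0.0122%. Of these lists, the endothelial, pericyte and fibroblast, amacrine and mitochondrially encoded ones did not overlap between sham and OHT. In the cultures Müller glia markers were at 0.347% to 0.428%, microglia and macrophage markers at 0.0100% to 0.0155%, and pericyte and fibroblast markers at 0.592% to 0.840%, above the Müller glia markers. In such bulk samples fewer cells of a type and less RNA per cell cannot be told apart.

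The comparison of OHT with sham asked whether raised eye pressure changes these genes in the sorted cells. No gene passed an adjusted p of 0.05 in limma, neither among the 34 nor among all genes tested (0%), and none passed in edgeR (1680 genes in limma and 1575 in edgeR had an unadjusted p under 0.05). Of the 34 genes, 27 had a lower and 7 a higher estimate in OHT, with a median log2 difference of -0.57 against -0.12 for all genes. At an unadjusted p under 0.05, limma gave 5 of 34 genes lower in OHT (Slc2a1, Slc16a1, Hk1, Pfkm and Ddit4) and 0 higher, where 6.3% of all genes were lower and 5.37% higher at that level. In 6 of 34 genes (Slc2a1, Slc2a3, Slc16a1, Pfkm, Pdha1 and Ddit4) every OHT library lay below every sham library, and in 0 every OHT library lay above, against 9.18% and 9.26% of all genes. DESeq2 called 1 of the 34, Ddit4, as lower (adjusted p 0.0488), against 1.36% of all genes lower and 0.375% higher. The count of 5 was 2 after a correction for transcript GC content and length, and 1 without sham replicate 2. That library had the highest value of the 6 for 13 of the 34 genes (18.8% of all genes), and also the highest share of Müller glia (0.932%), rod (2.59%) and endothelial (0.0470%) markers. The part of these markers in the differences was not tested.

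**Figure D1:**
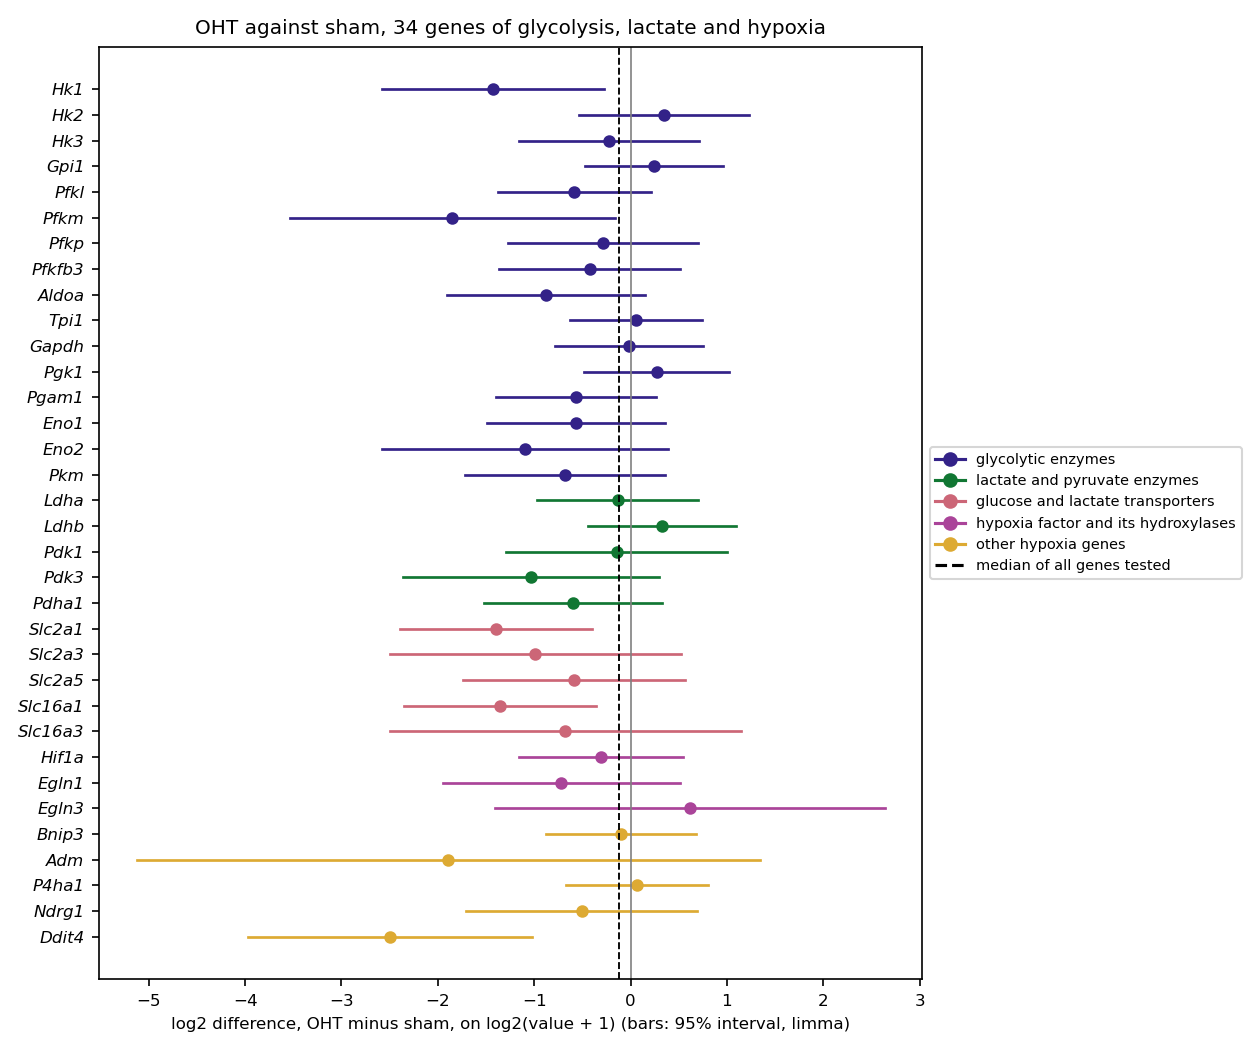
Log2 difference of OHT minus sham for each of the 34 genes (points, on log2(value + 1)) with its 95% interval from limma (bars), coloured by group of genes, with the median of all 14403 genes as a dashed line at -0.12. The intervals of Slc2a1, Slc16a1, Hk1, Pfkm and Ddit4 lie below 0, and those of the other genes cover 0.

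The transporters had the lowest median of the 5 groups of genes, -0.99, with 5 of 5 estimates below 0 (7886 of 14403 for all genes) and 3 of 5 genes without overlap on the lower side (9.18% of all genes). The median was -0.94 after quantile normalization and -0.56 after the GC and length correction, where all genes stood at 0.17. Without OHT replicate 1 it was -0.63. Slc2a1 encodes GLUT1, the main glucose transporter of the retina and of its vessels. Its normalised read counts were 5735, 14418 and 8365 in sham and 1857, 4755 and 4300 in OHT. Each OHT library was thus below each sham library, and the mean was 2.61-fold higher in sham, at 9506 ± 4453 against 3637 ± 1558 (SD, n = 3 each). The log2 difference was -1.40 (SE 0.45, 95% interval -2.39 to -0.40, limma adjusted p 0.337), and -0.82 after the GC and length correction. Endothelial markers, whose cells are rich in GLUT1, were also lower in OHT without overlap, as were the pericyte and fibroblast, amacrine and mitochondrially encoded lists given above, and their part was not tested.

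Slc16a1 encodes MCT1, a carrier that takes lactate in or out along its gradient. Its counts were 2476, 5770 and 3961 in sham and 1646, 2285 and 894 in OHT. Here too no OHT library reached the lowest sham library. The log2 difference was -1.36 (SE 0.45, 95% interval -2.35 to -0.36, limma adjusted p 0.343), and it ranged from -1.67 to -0.99 when 1 library was left out. Slc16a3, which encodes MCT4, the exporter of strongly glycolytic cells, was far lower in both groups, with 648, 179.9 and 500.4 in sham and 96.7, 691 and 212 in OHT, and the groups overlapped (-0.68, 95% interval -2.49 to 1.14). Slc2a3 encodes GLUT3, the high-affinity carrier of neurons. It was low as well, with 367, 346 and 260.3 in sham and 96.7, 241 and 179 in OHT, and without overlap between the groups (log2 difference -0.99, 95% interval -2.50 to 0.52). Slc2a5 encodes the fructose carrier GLUT5, known in brain and retina as a microglial gene. It was at 15824, 10028 and 2987 in sham and 5223, 6328 and 4218 in OHT, a 5.30-fold range within sham that covered every OHT library.

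**Figure D2:**
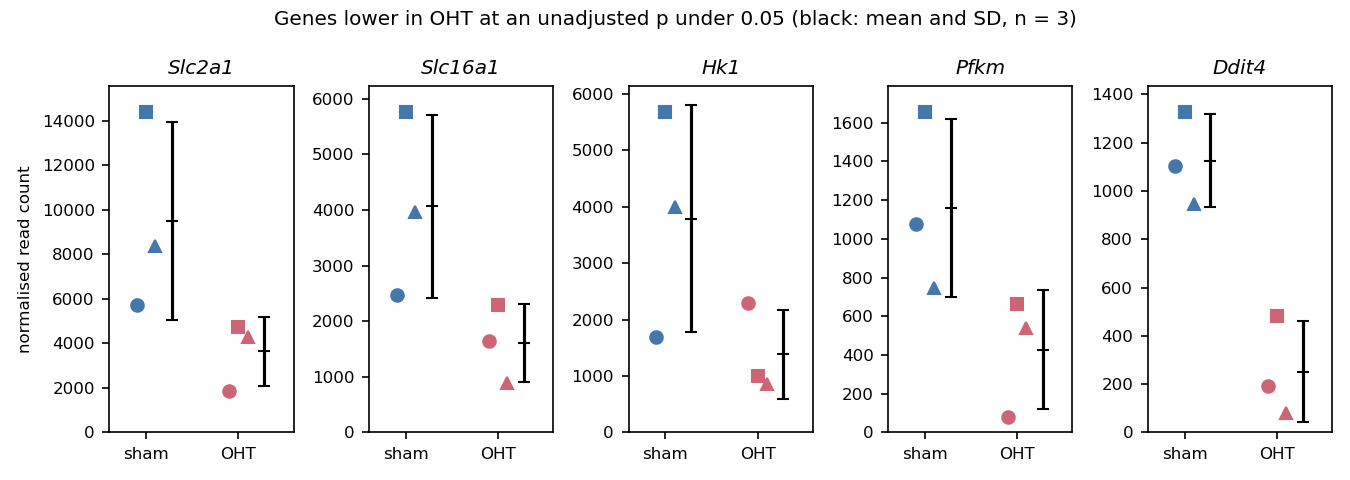
Normalised read counts (vertical axes, from 0) of the 5 genes that were lower in OHT at an unadjusted p under 0.05, with circles, squares and triangles for replicates 1, 2 and 3 and the mean with SD in black. The groups do not overlap for Slc2a1, Slc16a1, Pfkm and Ddit4, while sham replicate 1 lies below OHT replicate 1 for Hk1.

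Hexokinases trap glucose in the cell by phosphorylating it. Hk1, the housekeeping isoform, was at 1689, 5688 and 4001 in sham and 2292, 995 and 863 in OHT. Sham replicate 1 lay within the OHT range, so the groups overlapped, although the mean was 2.74-fold higher in sham (log2 difference -1.43, SE 0.53, 95% interval -2.58 to -0.28, limma adjusted p 0.365). The difference was -0.77 after the GC and length correction. Hk2, the inducible isoform that rods also use, was at 3089, 2514 and 2430 in sham and 5141, 1991 and 3810 in OHT. Its groups overlapped, with the log2 difference on the other side of 0 (0.35, 95% interval -0.53 to 1.23). Hk3, the isoform of myeloid cells, was at 2872, 1858 and 2641 in sham and 2146, 3331 and 1236 in OHT and overlapped as well (-0.22, 95% interval -1.16 to 0.71). The ratio of Hk2 to Hk1 within a library (with a pseudocount of 1) is almost free of library scaling. As log2 it was 0.87, -1.18 and -0.72 in sham and 1.17, 1.00 and 2.14 in OHT, higher in each OHT library than in any sham library, and sham replicate 1 was close to the OHT libraries. Per transcript length, Hk1 was 1.81-fold above Hk2 in sham and Hk2 1.89-fold above Hk1 in OHT (geometric means of 3 libraries). Sham replicate 1 had the order of OHT, with Hk2 at 14.3 and Hk1 at 11.2 ppm per kb.

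Phosphofructokinase commits the sugar to glycolysis, and its liver, muscle and platelet subunits are encoded by Pfkl, Pfkm and Pfkp. Pfkm was at 1078, 1657 and 747 in sham and 78.8, 663 and 539 in OHT. No OHT library reached the lowest sham library, and OHT replicate 1 stood apart at the bottom. The log2 difference of -1.85 (SE 0.77, 95% interval -3.54 to -0.16, limma adjusted p 0.397) was -0.88 without that library. Pfkl, the most abundant subunit per length in sham (53.5 ppm per kb, against 19.5 for Pfkp and 10.1 for Pfkm), was at 6576, 10297 and 7170 in sham and 3487, 6953 and 5939 in OHT. Those values overlapped, since OHT replicate 2 was above sham replicate 1 (log2 difference -0.58, 95% interval -1.38 to 0.21). Given by the range of all 6 libraries and the log2 difference, Pfkp (1785 to 4689; -0.28, 95% interval -1.27 to 0.70) and Pfkfb3 (3124 to 11112; -0.42, 95% interval -1.36 to 0.51) overlapped too. Pfkfb3 makes a sugar bisphosphate that strongly activates this enzyme. The directions of Pfkl, Pfkp and Pfkfb3 turned after the GC and length correction, to 0.17, 0.13 and 0.060. That correction also moved the median of all genes, from -0.12 to 0.17.

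Apart from phosphofructokinase, given above, the enzymes from glucose 6-phosphate isomerase (Gpi1) to pyruvate kinase (Pkm) showed no separation of the groups in any of 9 genes (Gpi1, Aldoa, Tpi1, Gapdh, Pgk1, Pgam1, Eno1, Eno2 and Pkm). Of all genes, 9.18% were apart on the lower side and 9.26% on the higher side, so few of 9 genes would be apart at those shares. Gapdh, often used as a reference gene, was at 24123, 36066 and 35224 in sham and 30557, 41739 and 23224 in OHT. These values were close to equal in mean (31804 ± 6665 in sham and 31840 ± 9324 in OHT; SD, n = 3), with a log2 difference of -0.02 and a 95% interval of -0.79 to 0.75. Gpi1 (7965 to 13255; 0.24), Tpi1 (6977 to 10021; 0.05) and Pgk1 (3643 to 6991; 0.27) had small positive differences that turned negative after quantile normalization, to -0.12, -0.31 and -0.072. Eno1, the enolase of most cells, was at 118981, 262584 and 171752 in sham and 104188, 110550 and 143020 in OHT. Sham replicate 2 stood above all others, sham replicate 3 also lay above the OHT libraries and sham replicate 1 lay within their range (log2 difference -0.57, 95% interval -1.49 to 0.36). Pkm was at 36299, 89204 and 87046 in sham and 25941, 69753 and 37955 in OHT, and sham replicate 1 fell within the OHT range (-0.68, 95% interval -1.72 to 0.36). Pgam1 (3567 to 8106; -0.57), Aldoa (1184 to 4914; -0.88) and the neuronal enolase Eno2 (156 to 669; -1.10) were negative with intervals that covered 0. The median over the 16 glycolytic enzymes was -0.50, and 0.072 after the GC and length correction, where all genes went from -0.12 to 0.17. It was -0.27 without OHT replicate 1 and -0.77 after quantile normalization. Gapdh, Ldha, Pgam1, Tpi1 and others have processed pseudogenes, Eno1 has the near-identical copy Eno1b (listed at 1056 to 3402 in the sorted libraries), and the labels do not state how shared reads were counted, which makes these levels uncertain.

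Lactate dehydrogenase is built from the subunits of Ldha, which favour lactate production, and of Ldhb, which favour its oxidation. Ldha was at 9071, 20207 and 21050 in sham and 13616, 17061 and 12556 in OHT. The OHT libraries lay inside the sham range (log2 difference -0.13, 95% interval -0.97 to 0.70, limma adjusted p 0.891). Ldhb was at 44186, 36971 and 24931 in sham and 51775, 35828 and 43322 in OHT, again with overlap (0.33, 95% interval -0.44 to 1.10; -0.077 after quantile normalization). Ldhb exceeded Ldha in each of the 6 sorted libraries, with log2 ratios of Ldha to Ldhb of -2.28, -0.87 and -0.24 in sham and -1.93, -1.07 and -1.79 in OHT. Per length, Ldhb was 2.97-fold above Ldha in sham and 4.09-fold in OHT. Pdha1, a subunit of pyruvate dehydrogenase, was at 2844, 2592 and 2487 in sham and 959, 2403 and 2299 in OHT. The groups did not overlap, but 2 of the OHT libraries were close to sham, and the log2 difference of -0.60 (95% interval -1.52 to 0.33) was -0.17 without OHT replicate 1. The pyruvate dehydrogenase kinases Pdk1 (1124 to 5678; -0.14, 95% interval -1.29 to 1.00) and Pdk3 (234 to 1104; -1.03, 95% interval -2.36 to 0.29) overlapped between the groups. Pdk1 ranged 5.05-fold within OHT, from 1124 to 5678, around all 3 sham libraries.

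Hif1a, the oxygen-regulated subunit of HIF-1, was at 5938, 7781 and 10191 in sham and 9432, 6714 and 3934 in OHT. Its transcript overlapped between the groups (log2 difference -0.31, 95% interval -1.16 to 0.54, limma adjusted p 0.743), and since oxygen acts on the protein, the transcript is no measure of HIF activity. Egln1 (253 to 1097; -0.72, 95% interval -1.94 to 0.51) and Egln3 (53.5 to 407; 0.62, 95% interval -1.40 to 2.64), hydroxylases that mark HIF for degradation and are themselves HIF targets, had estimates of opposite sign. Ddit4 encodes REDD1, a brake on mTORC1 that responds to hypoxia, energy stress and glucocorticoids. It had 1101, 1328 and 946 in sham and 191, 484 and 81.7 in OHT. All OHT libraries lay well below the sham libraries, whose own range was 1.40-fold, while OHT ranged 5.92-fold. With 1125 ± 192 in sham and 252 ± 208 in OHT (SD, n = 3), its log2 difference of -2.50 (SE 0.67, 95% interval -3.97 to -1.02, limma adjusted p 0.332) was the farthest from 0 of the 34 genes, and it ran from -3.15 to -1.87 when 1 library was left out. Bnip3, which drives removal of mitochondria in hypoxia, stayed within 1704 to 2689 in all 6 libraries (-0.10, 95% interval -0.88 to 0.68). P4ha1, a collagen prolyl hydroxylase subunit, lay at 4707 to 8400 (0.07, 95% interval -0.67 to 0.80). Ndrg1 (367 to 1492; -0.51, 95% interval -1.70 to 0.69) overlapped as well. Adm, the vasodilator peptide adrenomedullin, was at 23.8, 732 and 339 in sham and 6.91, 67.5 and 221 in OHT, and its 30.8-fold range in sham and 32.0-fold range in OHT left an interval of -5.13 to 1.34.

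A wider list of 83 other genes of glycolysis, pyruvate, glycogen and the hypoxia response held 70 genes that passed the filter. It too was chosen with earlier results of these data known. None of the 70 genes passed the adjusted threshold in limma. At an unadjusted p under 0.05, 8 of 70 were lower and 2 higher in OHT, against 6.3% and 5.37% of all genes, and the median log2 difference of the 70 was -0.33 against -0.12 for all genes. DESeq2 called 3 of 70 as lower and 0 as higher, against 1.36% and 0.375% of all genes. The genes named are the 3 with the lowest p on the lower side and both on the higher side. Epas1, which encodes the second HIF alpha subunit and is high in endothelium, was at 1686, 5403 and 4184 in sham and 819, 1012 and 953 in OHT (log2 difference -1.86, limma adjusted p 0.332, DESeq2 adjusted p 0.00774). P4ha2, a HIF-responsive relative of P4ha1, was at 289, 661 and 399 in sham and 40.1, 78.2 and 97.0 in OHT (-2.64, limma adjusted p 0.332, DESeq2 adjusted p 0.0176). In both, each OHT library was below each sham library. Me1, the cytosolic malic enzyme, was at 83.7, 719 and 1265 in sham and 49.7, 70.8 and 32.1 in OHT (-3.11, limma adjusted p 0.343, DESeq2 adjusted p 0.00249), where sham replicate 1 was close to OHT. The 2 genes on the higher side were Plin2, a coat protein of lipid droplets, at 3568, 4214 and 8744 in sham and 8170, 14546 and 14500 in OHT (1.24, limma adjusted p 0.343), and Gyg, the primer of glycogen, at 1318, 1638 and 3567 in sham and 7240, 4696 and 2922 in OHT (1.23, limma adjusted p 0.370). In both, sham replicate 3 reached into the OHT range.

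The primary cultures give these genes in retinal cells kept in serum and labelled as Müller glia. In them, pericyte and fibroblast markers took more reads than Müller glia markers. Bulk reads do not tell which cells carried these markers, and their part in the levels was not tested. The table of the cultures was normalised separately, so levels are given in ppm as means ± SD (n = 3 per group), with no test. Together the 34 genes took 1.69% to 1.83% of culture reads, 0.861% to 1.46% of sham and 0.481% to 0.902% of OHT reads. Of the 34, 11 were higher in every culture than in any sorted library (32.5% of the 15438 genes in both tables were) and 10 were lower (16.5% were). The share that was higher was thus that of all genes. The 11 were the glycolytic enzymes Hk1, Gpi1, Tpi1, Gapdh, Pgk1, Pgam1 and Pkm, with Ldha, Pdha1, Slc16a3 and Adm. Of the 16 glycolytic enzymes, 7 were higher, 4 lower and 5 overlapped. Pkm had 6036 ± 269.9 ppm in the cultures against 1747 ± 717 in sham and 993 ± 594 in OHT. Gapdh had 1983 ± 288 ppm in the cultures against 787 ± 154 in sham and 675 ± 246 in OHT. Pdha1 had 307 ± 43.4 ppm in the cultures against 65.7 ± 7.18 in sham and 43.3 ± 25.1 in OHT. They encode the last enzyme of glycolysis, the dehydrogenase in its middle and the entry to the mitochondrial route, and were 3.45-fold, 2.52-fold and 4.67-fold above sham. Hk1 was at 260.0, 262 and 258 ppm in the cultures, above the 22.6 to 145 ppm of the sorted libraries, and Adm at 54.2, 32.7 and 30.3 ppm in the cultures, above 0.105 to 18.6 ppm. Eno1 was high everywhere, at 5059 to 5473 ppm in the cultures and 1583 to 6675 ppm in the sorted libraries, with overlap.

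The 10 lower genes were Hk2, Hk3, Pfkfb3, Eno2, Ldhb, Pdk1, Slc2a5, Slc16a1, Hif1a and Bnip3. Slc2a5 was at 0.226, 0.0925 and 0.313 ppm in the cultures, against 70.2 to 405 ppm in the sorted libraries. Hk3 was at 0.151, 0.198 and 0.391 ppm in the cultures, against 32.6 to 75.5 ppm. Both are genes of myeloid cells, and the microglia and macrophage markers differed in the same direction, at 0.0100% to 0.0155% of culture reads against 3.34% to 6.11% of sorted reads; their part was not tested. Pdk1, a kinase that holds pyruvate back from the mitochondria, was at 0.980, 2.63 and 1.98 ppm in the cultures, against 29.7 to 86.3 ppm. Slc16a1, among the genes lower in OHT than in sham by estimate, was lower still here, at 2.34, 4.01 and 4.42 ppm in the cultures, against 23.7 to 147 ppm. Ldhb was at 124, 149.8 and 159 ppm in the cultures, against 586 to 1147 ppm, while Hif1a was at 58.6, 72.4 and 72.8 ppm in the cultures, against 104 to 239 ppm. Of the remaining 13 genes, which overlapped, Slc2a1 was at 137, 88.1 and 92.4 ppm in the cultures and Ddit4 at 4.22, 20.4 and 18.9 ppm in the cultures, with culture replicate 1 apart from the others. A total without mitochondrially encoded genes turned the sign of the culture to sham ratio for Pfkm, Eno1 and P4ha1, and a total without the 20 highest genes also for Aldoa, all of them among the overlapping genes.

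**Figure D3:**
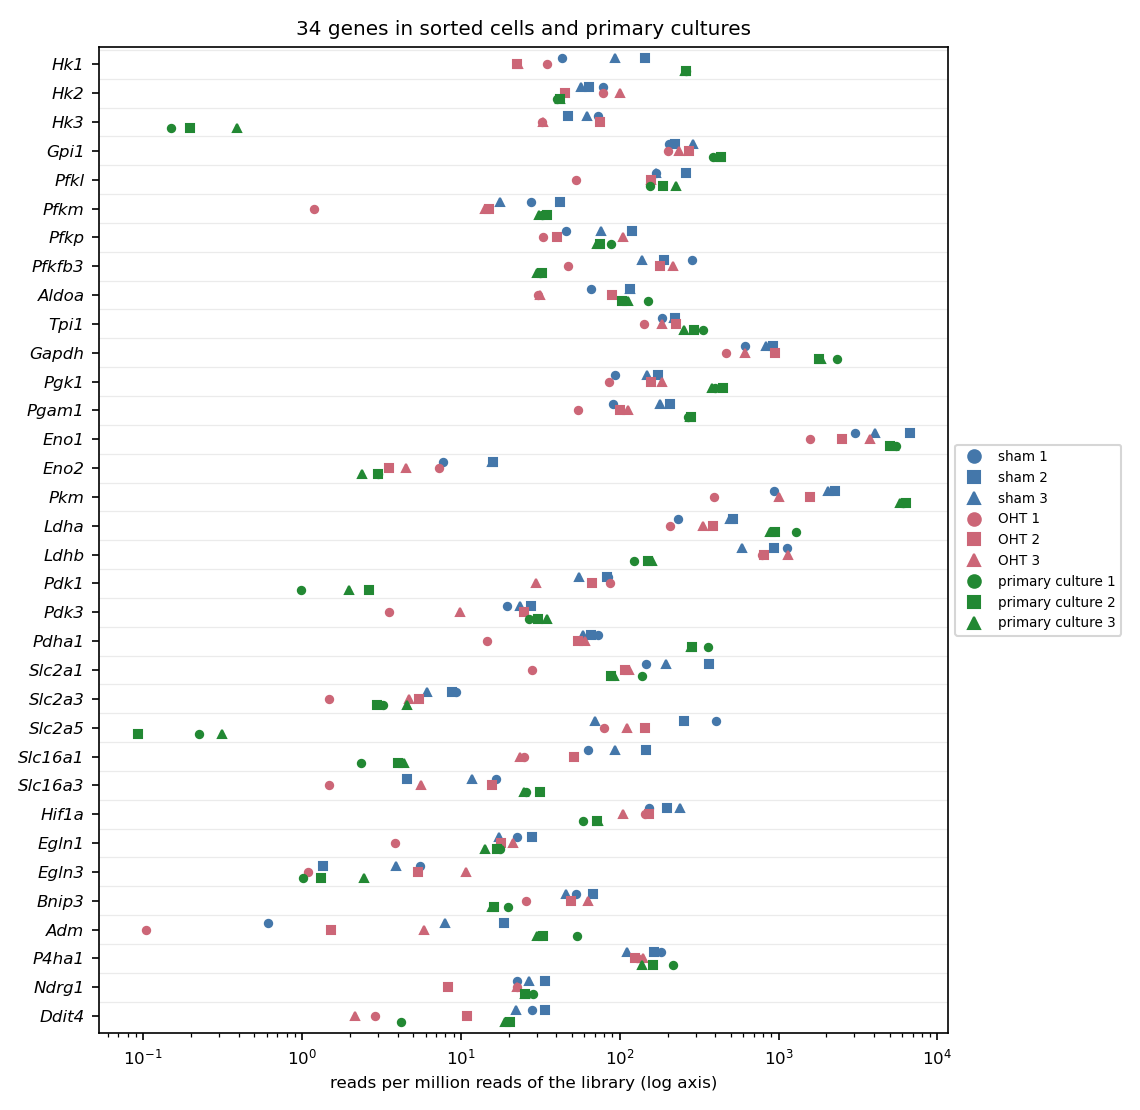
Level of each of the 34 genes in ppm (horizontal log axis) in the 9 libraries, with sham in blue, OHT in red, primary cultures in green, and circles, squares and triangles for replicates 1, 2 and 3. Slc2a5, Hk3, Pdk1 and Slc16a1 lie far to the left in the cultures, and Pkm, Gapdh and Ldha to the right.

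Ratios between isoforms within a library are almost free of the scaling of the tables, and at the lactate steps they lay on opposite sides of 0 in cultures and sorted cells. The log2 ratio of Ldha to Ldhb was 3.38, 2.66 and 2.48 in the cultures, above 0 where all 6 sorted libraries were below it. Per length, Ldha was 5.29-fold above Ldhb in culture (geometric mean of 3 libraries). Slc16a3 to Slc16a1 gave 3.44, 2.97 and 2.50 in the cultures, -1.93, -5.00 and -2.98 in sham and -4.07, -1.72 and -2.07 in OHT. MCT4 was therefore the leading transcript of the pair in culture and MCT1 in all sorted libraries. Pdk3 to Pdk1 went from -2.11, -1.60 and -1.23 in sham and -4.60, -1.43 and -1.58 in OHT to 4.75, 3.53 and 4.12 in culture. Per length, Pdk1 was 1.28-fold above Pdk3 in sham and 2.36-fold in OHT, and Pdk3 was 43.1-fold above Pdk1 in culture. In sham replicate 3, Pdk1 already lay below Pdk3 per length, at 10.7 against 11.2 ppm per kb. Hk2 to Hk1 was at -2.69, -2.64 and -2.62 in the cultures, below each sorted library. The pairs with a myeloid member, Hk3 to Hk1 and Slc2a5 to Slc2a1, reached at most -9.32 and -8.15 in the cultures and at least -1.61 and -1.49 in the sorted libraries. The ratios of Pfkp to Pfkl, Pfkm to Pfkl and Slc2a3 to Slc2a1 overlapped between cultures and sorted libraries. Between sham and OHT, 8 of the 10 ratios overlapped. The others were Hk2 to Hk1, given above and higher in OHT, and Pfkm to Pfkl, lower in OHT. Pfkm to Pfkl was at -2.61, -2.64 and -3.26 in sham and -5.45, -3.39 and -3.46 in OHT. Of all single genes tested, 9.26% were apart on the higher side and 9.18% on the lower side. At such shares, a few of 10 ratios apart would be no excess. The share among ratios of other gene pairs was not tested.

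**Figure D4:**
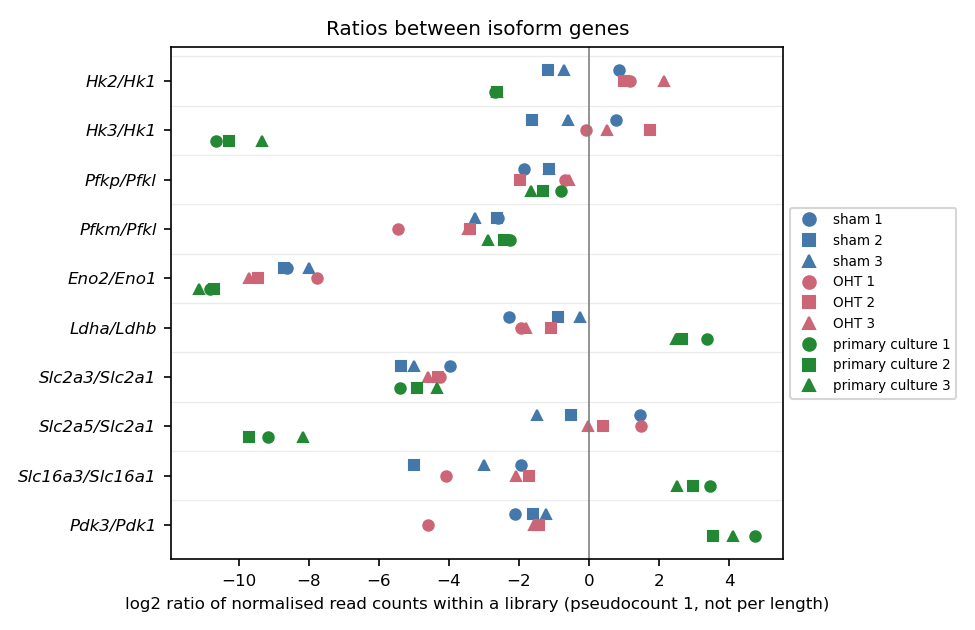
Log2 ratio of normalised read counts between 2 isoform genes (horizontal axis, not per length) for 10 pairs in the 9 libraries, coloured by group with a symbol for each replicate. Cultures lie right of 0 and sorted libraries left of it for Ldha to Ldhb, Slc16a3 to Slc16a1 and Pdk3 to Pdk1.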

How the data were processed

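RNA of GLAST-sorted mouse retinal cells and of primary cultures, both labelled as Müller glia, was amplified with a SMARTer v4 ultra-low input kit and sequenced as 150 bp pairs, per the labels' protocols. The submitters' processing notes name bcl2fastq 2.20, Trim Galore 0.6.6, FastQC 0.11.9, STAR 2.7.1a and the genome build mm39, without the settings. The sources used here name no counting program, annotation or normalization tool. The authors deposited one table of gene values for the 6 sorted libraries and another for the 3 cultures, here treated as signal: in each library the values are whole numbers divided by a constant (100% whole within 0.05), which gave back the reads.

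OHT and sham were compared with limma 3.58.1 (R 4.3.3, trend) on log2(value + 1) for 14403 of 16367 genes with a mean of at least 10, with Benjamini-Hochberg adjustment at 0.05; this scale understates changes of low genes. The recovered reads went into edgeR 4.0.16 and DESeq2 1.42.0 as alternatives, beside other pseudocounts, filters and scalings, a correction for GC content and length (GENCODE M21 transcripts, splines with 4 degrees of freedom, 96.15% of genes) and leaving out each library. An exact permutation test of 3 against 3 libraries cannot go below 0.1 and was not used. Cultures were compared by ppm of the recovered reads only, since their table was normalised apart. Per-length levels used the same transcripts. The protocols name no molecular identifiers, so reads are not independent molecules. The limma script was tested on simulated data. The text names all 34 members and, of the wider list, genes past the adjusted threshold and up to 3 per direction with the smallest unadjusted p under 0.05. The members and lists were chosen with earlier results of these data known.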

Additional observations from a re-analysis of the deposited data

How the results depend on the processing

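No gene passed the adjusted threshold in limma (1680 at an unadjusted p under 0.05) or in edgeR (1575), while DESeq2 passed 250 (2028 unadjusted), 1 of them among the 34 genes. Leaving out 1 library gave 0 to 12 genes past the adjusted threshold (12 without sham replicate 1, 7 without sham replicate 3) and 544 to 2500 at the unadjusted level (544 without sham replicate 2). Of the 34, those lower in OHT at the unadjusted level numbered 5, then 2 after the GC and length correction and 1 to 7 when 1 library was left out. Adding the replicate block to limma gave 2 genes past the adjusted threshold, counted over all genes tested. Same-numbered libraries had deviations correlated at 0.08, -0.02 and -0.05 over all genes. No pairing by number was seen, but such a correlation cannot exclude one.

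The median of all genes, -0.12, was -0.046 with a mean of at least 100, 0.0097 after quantile normalization, -0.067 in edgeR, -0.0023 in DESeq2, 0.17 after the GC and length correction and -0.19 to -0.041 when 1 library was left out. The glycolytic enzymes' median went to 0.072 after the GC and length correction, and that of the lactate and pyruvate enzymes from -0.14 to -0.55 after quantile normalization. With 1 library left out, medians ran from -0.68 to -0.27 for glycolytic enzymes, -0.50 to 0.033 for Hif1a and the hydroxylases (-0.31 with all libraries, above 0 without OHT replicate 3), -0.53 to -0.041 for lactate and pyruvate enzymes, -1.43 to -0.63 for transporters and -0.67 to -0.14 for the other hypoxia genes.

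In 18 of the 34 genes the direction held in all 16 alternatives. After the GC and length correction, which moved the median of all genes to 0.17, the sign turned for Hk3 (0.49), Pfkl (0.17), Pfkp (0.13), Pfkfb3 (0.060), Gapdh (0.085), Pdk1 (0.19) and Slc16a3 (0.065). Quantile normalization turned Gpi1 (-0.12), Tpi1 (-0.31), Pgk1 (-0.072), Ldhb (-0.077) and P4ha1 (-0.27). edgeR turned Tpi1 (-0.0078) and Pdk1 (0.042), and DESeq2 Gapdh (0.0022) and Pdk1 (0.13). With 1 library left out, signs turned within the ranges -0.57 to 0.15 for Hk3, -0.65 to 0.034 for Pfkp, -0.67 to 0.030 for Pfkfb3, -0.052 to 0.21 for Tpi1, -0.23 to 0.19 for Gapdh, -0.012 to 0.44 for Pgk1, -0.53 to 0.078 for Ldha, -0.69 to 0.48 for Pdk1, -0.60 to 0.033 for Hif1a, -0.21 to 0.038 for Bnip3, -0.15 to 0.19 for P4ha1 and -0.98 to 0.031 for Ndrg1. The log2 culture to sham ratio turned, without mitochondrially encoded genes and without the 20 highest genes respectively, for Pfkm (-0.084 and -0.13), Eno1 (-0.050 and -0.11) and P4ha1 (-0.056 and -0.11), and without the 20 highest genes for Aldoa (-0.022). The cause was not tested in any of these cases. All 80 alternative values of the isoform ratios between OHT and sham stayed within 1 SD of the libraries in a group. Leaving out 1 of 3 libraries cannot move a group mean that far, and the remaining alternatives changed the pseudocount only. This is therefore no measure of robustness.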

Other observations

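Aldoc, the aldolase isoform of astrocytes and Müller glia, belonged to the wider list and was singled out after its values were seen. Its normalised read counts were 15566, 73657 and 52608 in sham and 14514, 11246 and 18878 in OHT. Astrocyte markers took 0.00361, 0.0736 and 0.128% of sham and 0.00588, 0.00787 and 0.0122% of OHT reads. Aldoc and these markers were both lower in sham replicate 1 than in the other sham libraries. So were the Müller glia (0.387, 0.932 and 0.427%) and rod markers (0.276, 2.59 and 2.10%), both highest in sham replicate 2 as Aldoc was. Pericyte and fibroblast, amacrine and erythrocyte markers were lowest there too, while the other cell type lists were not. The part of any of these cells was not tested. Per length Aldoc exceeded Aldoa in the sorted libraries, at 419.6 against 65.8 ppm per kb in sham and 117 against 33.4 in OHT. In the cultures the order was the opposite, with 1.47 for Aldoc and 81.0 for Aldoa.

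The 11 glycogen genes of the wider list had a median log2 difference of -0.73 between OHT and sham, with 9 estimates below and 2 above 0. The median of all genes was -0.12, with 7886 of 14403 estimates below 0. The glycogen genes had the lowest median among the groups of the wider list. The others stood at -0.35 (other glycolysis genes), 0.07 (other lactate and pyruvate genes), -0.28 (other glucose transporters) and -0.23 (other hypoxia pathway genes). At an unadjusted p under 0.05 in limma, 1 of 11 glycogen genes was lower and 1 (Gyg) higher, against 6.3% and 5.37% of all genes.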
